A study of Rattus norvegicus with 6 samples.

Results

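In BRIN-BD11 cells, 120 of the 22250 genes in the count tables were read at 3 counts or fewer in every control library and at 10 counts or more in every library treated with MS-275. BRIN-BD11 is an insulin-secreting rat pancreatic beta cell line, made by fusing RINm5F cells with islet cells of New England Deaconess Hospital rats. MS-275, also called entinostat, blocks the histone deacetylases of class I. The 120 genes were selected on these counts themselves, so their higher counts with MS-275 are a description of the choice and carry no test. The opposite choice, with every MS-275 library at 3 counts or fewer and every control at 10 or more, held 0 genes, and between 0 and 3 genes when 1 library was left out (3 without MS-275 replicate 3, 2 without control replicate 2).

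Histone deacetylases of class I remove acetyl groups from the tails of histones, and chromatin that has lost these groups is packed more tightly and is transcribed less. Cells of a given type keep the genes of other cell types silent in part in this way. Inhibitors of these enzymes leave histones more acetylated, and they are known to allow reads from genes that are silent in a given cell line. Whether a gene is a direct target of the inhibitor cannot be read from RNA levels at a single time.

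The 6 libraries came from total RNA of cells at passage 25. The 3 MS-275 libraries were from cells that received 5 µM MS-275 24 h after seeding and were collected 16 h later, and the 3 control libraries were from cells given DMSO and no inhibitor. MS-275 was dissolved in 0.1% DMSO by the labels. The share of DMSO that the study's text gives for the controls is lower. All libraries were of 1 cell line at 1 passage, and the labels do not say whether repeats were separate cultures, so the spread between libraries may be partly technical. The libraries held between 5230555 and 9172422 counts on genes. The tables list Ensembl gene identifiers, and the annotation used here pairs 0 of them with a gene name. The labelled cell type could therefore not be checked against its markers, the genes could not be grouped by function, and 2 of them are given by identifier and the others by their rank. Rank 1 is the gene with the highest mean level over the 3 MS-275 libraries.

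The rule keeps genes near the limit of detection in the controls. The tables held 8760 genes with at most 3 counts in every control, and the 120 genes are 1.37% of these. Most of the near-silent genes stayed so, since 7913 of the 8760 were also at 3 counts or fewer in every MS-275 library, and 5404 were at 0 in all 6 libraries. In 847 of them at least 1 MS-275 library was above 3 counts, and 102 reached 10 counts in exactly 1 MS-275 library, 53 in exactly 2 and 120 in all 3. MS-275 replicate 3, the deepest library, was the single library over 10 in 57 of the 102, against 38 for replicate 1 and 7 for replicate 2.

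Near-silent genes were unevenly divided between the groups at every limit tried. With at least 1 count required in every library of the other group, 985 genes were near silent in the controls and 261 near silent with MS-275. At 5 counts these numbers were 254 and 14, and at 7 counts they were 175 and 4. At 20 counts 38 genes were left that were near silent in the controls, at 50 counts 5, and at 100 counts 2. In the reverse direction there were 0 genes from 10 counts on. The number near silent with MS-275 was 8087, against 8760 in the controls, so the starting sets were of similar size. The controls were not all deeper or shallower than the MS-275 libraries. After every library was thinned to 5230555 counts, in 1 draw, the rule held 114 genes and its reverse 0. Of the 114 genes, 79 were among those chosen at full depth, so the like total hides that other genes of the list no longer passed.

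**Figure D1:**
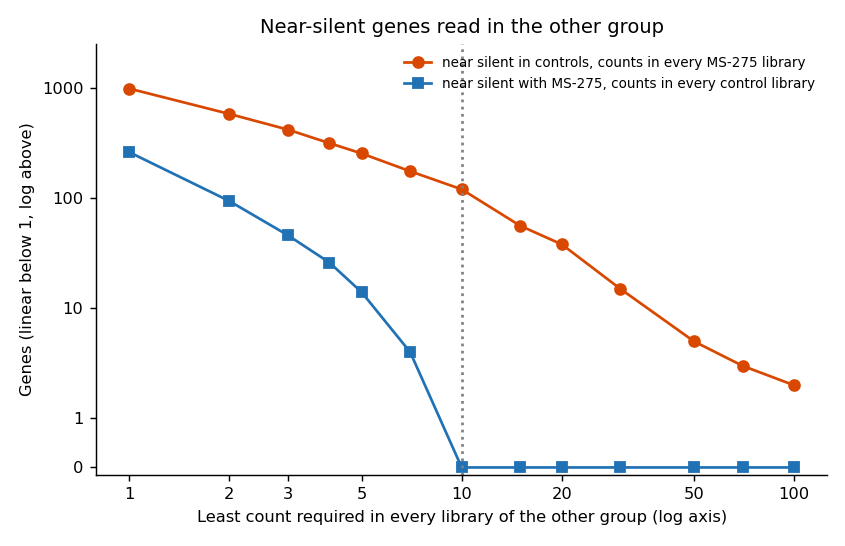
Number of genes with at most 3 counts in every library of one group, by the least count required in every library of the other group (horizontal log axis), with the dotted line at 10 counts. The line of genes near silent in the controls falls from 985 at 1 count to 120 at 10, and the line of genes near silent with MS-275 falls from 261 to 0. At limits of up to 3 counts the same gene can be counted in both lines.

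With MS-275 most of the 120 genes reached a low level. Levels are given in CPM, counts scaled to 1000000 per library and adjusted by the TMM method of edgeR, and they do not correct for gene length. The mean over the 3 MS-275 libraries was between 1.78 and 25.1 CPM, with a median of 3.27 and quartiles of 2.46 and 4.52. It reached 5 CPM in 25 genes and 10 CPM in 5. Over the 12596 genes that passed the filter for testing, the median was 33.3 CPM with MS-275, and 5.93% of these genes lay under the median of the 120. In the controls no gene of the 120 was above 0.519 CPM in any library. That value is the rule's own limit, 3 counts in control replicate 3. The median of the genes' control means was 0.120 CPM. Together the 120 genes held 9537 counts in the MS-275 libraries and 370 in the controls. They made up 0.0609%, 0.0512% and 0.0380% of the counts in MS-275 replicates 1, 2 and 3, and 0.00204%, 0.00138% and 0.00181% in control replicates 1, 2 and 3. The 5 genes with the highest levels held 18.2% of the counts on the 120 genes with MS-275.

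**Figure D2:**
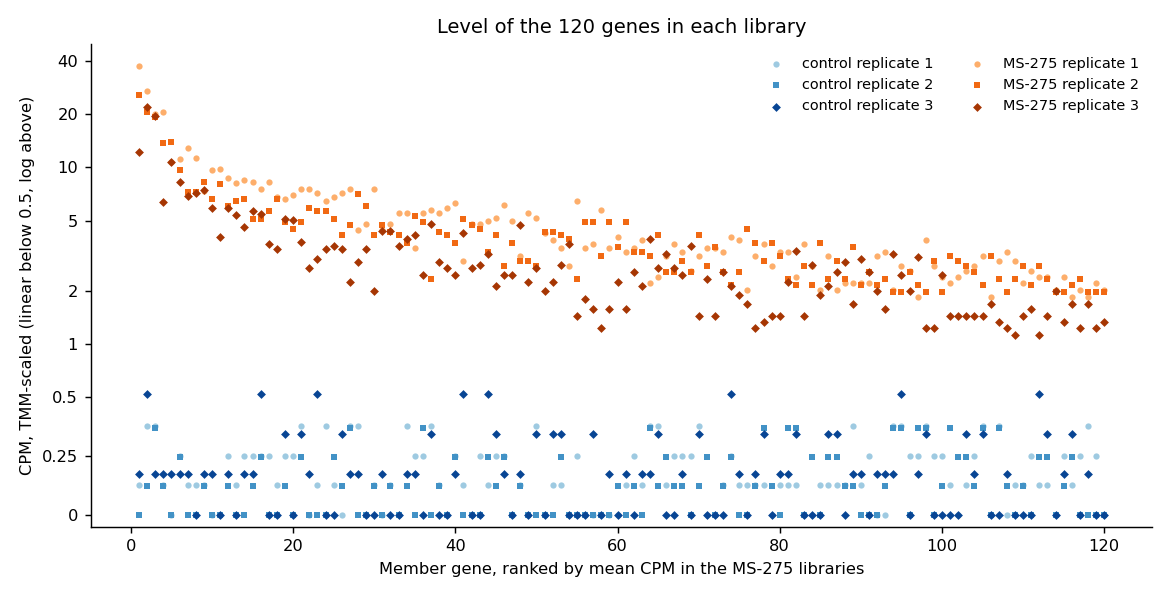
CPM of each of the 120 genes in each of the 6 libraries (vertical axis linear below 0.5 and logarithmic above), with genes in order of their mean over the MS-275 libraries. The MS-275 libraries run from 37.3 CPM for the first gene in replicate 1 down to 1.12 in replicate 3, and every control value is at or under 0.519 CPM. The values 1.12 and 0.519 CPM are the rule's own limits, 10 counts in MS-275 replicate 3 and 3 counts in control replicate 3.

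The 5 genes above 10 CPM show how differently genes with like control counts behaved. The gene with the highest level, ENSRNOG00000003897, was read 1, 0 and 1 times in the controls, in the order of their replicate numbers, and 202, 131 and 109 times with MS-275. Scaled for depth, these last were 37.3, 25.7 and 12.2 CPM, a mean of 25.1 ± 12.6 (SD, n = 3). Its 3 MS-275 libraries were thus far apart, with replicate 1 at 3.06 times replicate 3, though each was far above the controls. The gene of rank 2, ENSRNOG00000017409, had 3, 1 and 3 control counts and 146, 105 and 198 counts with MS-275. Its MS-275 levels were 27.0, 20.6 and 22.1 CPM, a mean of 23.2 ± 3.32 (SD, n = 3), so its libraries lay close together. The gene of rank 3 had 3, 3 and 1 counts in the controls and 108, 98 and 174 with MS-275. Its levels of 20, 19.2 and 19.5 CPM lay closer together still, a mean of 19.5 ± 0.370 (SD, n = 3). The gene of rank 4, with 1 count in each control, had 111, 70 and 57 counts with MS-275. Its 20.5, 13.7 and 6.37 CPM fell in the same order of libraries as those of rank 1, with replicate 1 at 3.22 times replicate 3. The gene of rank 5 had 1 control count in all, in control replicate 3, and 58, 71 and 96 counts with MS-275, or 10.7, 13.9 and 10.7 CPM.

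In 16 of the 120 genes every control library was at 0, so the size of the increase is known only from below. The bound is the mean MS-275 level over a floor of 3 counts in each control library, which is 0.422 CPM on average. It allows for counting error in the controls only, and not in the MS-275 counts. It was computed otherwise than the interval limits given below for the other genes, so bounds and limits cannot be compared. It was between 4.22-fold and 17.3-fold, with a median of 8.28, and it reached 5-fold in 14 of the 16 genes and 10-fold in 4. The rule itself sets a least value for this bound, since its 10 counts are 1.85, 1.96 and 1.12 CPM in MS-275 replicates 1, 2 and 3. The highest bound was that of the gene of rank 11, which had 53, 41 and 36 counts with MS-275, or 9.79, 8.04 and 4.02 CPM, and was at least 17.3-fold higher. The gene of rank 29, with 26, 31 and 31 counts, was at least 11.3-fold higher, and that of rank 33, with 30, 21 and 32 counts, at least 10.5-fold. The lowest bound was that of the gene of rank 120, the lowest level of all, with 11, 10 and 12 counts and an increase of at least 4.22-fold. These bounds follow the genes' levels with MS-275, since the floor is the same for all 16, and they do not rank the genes by the true size of their increase. Without MS-275 replicate 3 the bounds were between 4.73-fold and 21.1-fold, with a median of 10.1.

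The other 104 genes had between 1 and 9 counts over the 3 controls, in 1 control for 30 genes, in 2 for 33 and in every control for 41. For these the ratio of pooled levels is given with its exact 95% interval (Clopper-Pearson, from the split of the counts between the groups), which covers counting error only. The ratios were between 5.76-fold and 253-fold, with a median of 24.1. Since few control counts stand behind them, the lower limits of the intervals say more on the least increase than the ratios do. The lower limits were between 2.67-fold and 68.4-fold, with a median of 7.45. They were at or above 4-fold in 90 of the 104 genes, 8-fold in 46 and 16-fold in 16. Without MS-275 replicate 3 the lowest of these limits was 2.56-fold, their median was 8.17-fold, and 92 of them reached 4-fold and 53 reached 8-fold. The choice of genes by low control counts and higher MS-275 counts favours high ratios and high limits.

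The width of the interval depended on the control counts. In the 58 genes with 1 to 3 control counts the upper limit was a median of 32.2 times the lower, and in the 46 genes with 4 to 9 control counts it was 7.69 times. The highest ratio, 253-fold for the gene of rank 5, rested on a single control count, and its interval ran from 44.9-fold to 10032-fold. ENSRNOG00000003897, with 2 control counts, had a ratio of 248-fold with an interval from 68.4-fold to 2057-fold, so its lower limit was the highest of all. The ratio of ENSRNOG00000017409, with 7 control counts, was 72.1-fold, between 34.7-fold and 180-fold. That of the gene of rank 3, also with 7 control counts, was 61.0-fold, between 29.3-fold and 153-fold. At the other end, the gene of rank 105 had the lowest ratio, 5.76-fold, with an interval from 2.67-fold to 14.2-fold.

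**Figure D3:**
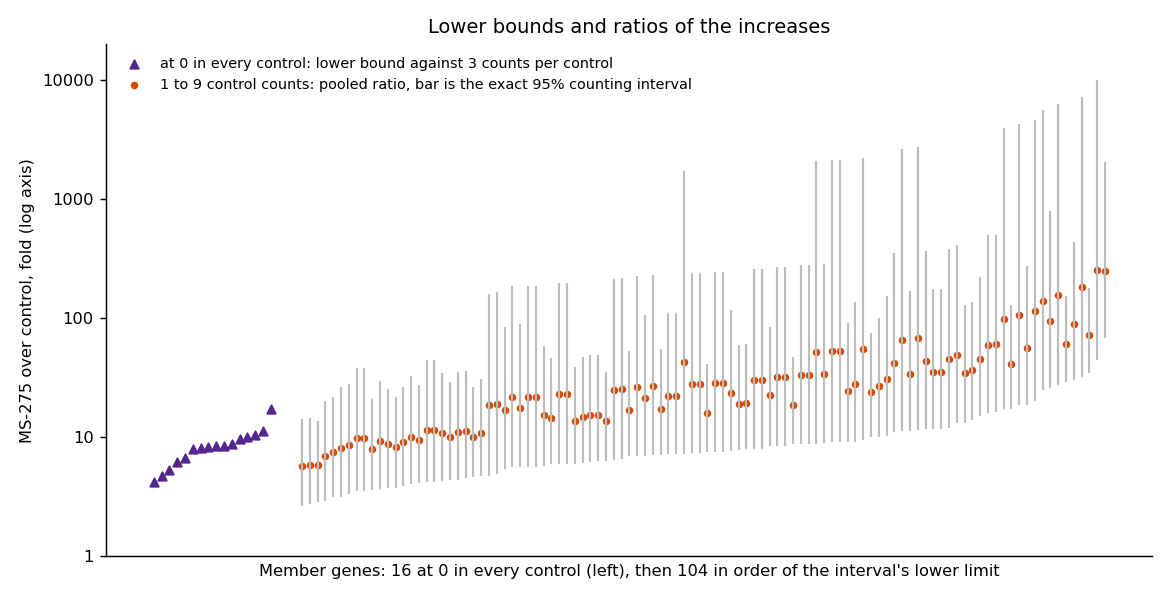
Increase with MS-275 over control as a fold on a log axis. Triangles are lower bounds for the 16 genes at 0 in every control, from 4.22-fold to 17.3-fold, and points with bars are ratios with 95% counting intervals for the other 104 genes, whose lower limits run from 2.67-fold to 68.4-fold. Bounds and interval limits were computed differently and cannot be compared.

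The coefficient of variation between the 3 MS-275 libraries, the SD as a percent of the mean, was between 1.81% and 78.0%, with a median of 30% and quartiles of 21.0% and 40.5%. The Poisson SD of the counts as a percent of the mean, here the counting CV, had a median of 22.4%. With counting error alone the coefficient of variation of 3 libraries would have a median near 18.7% and would lie above the counting CV in 36.8% of genes, by a normal approximation. It lay above in 86 of the 120 genes, or 71.7%. The highest MS-275 library was more than 1.5 times the lowest in 87 genes, more than 2 times in 45 and more than 3 times in 11, with a median of 1.86 times. The spread was over 40% in 32 genes and under 20% in 25. Both classes spanned much of the range of levels, from 2.09 to 25.1 CPM with a median of 3.39 in the first and from 1.83 to 23.2 CPM with a median of 2.91 in the second.

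**Figure D4:**
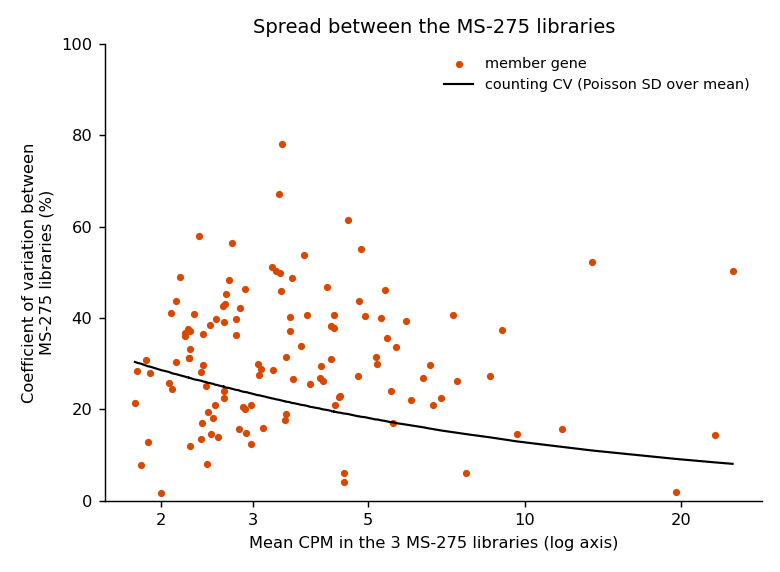
Coefficient of variation of each of the 120 genes between the 3 MS-275 libraries, by its mean CPM on a log axis. The line gives the counting CV, the Poisson SD as a percent of the mean at the libraries' depth, and 86 of the 120 points lie above it.

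The widest spread was that of the gene of rank 55, with 2, 0 and 0 control counts. It had 35, 12 and 13 counts with MS-275, or 6.47, 2.35 and 1.45 CPM. The next was that of rank 58, at 0 in every control, with 31, 16 and 11 counts with MS-275, or 5.73, 3.14 and 1.23 CPM. In both genes replicate 1 was the highest library and replicate 3 the lowest. The narrowest spread was that of the gene of rank 114, also at 0 in every control, with 11, 10 and 18 counts and 2.03, 1.96 and 2.01 CPM. Its coefficient of variation of 1.81% is far under its counting CV of 28.6%, so the spread is narrower than such counts usually give. Narrow spreads were also seen at rank 31, with 4.43, 4.71 and 4.36 CPM, at rank 32, with 4.80, 4.32 and 4.36 CPM, and at rank 9, with 7.39, 8.24 and 7.49 CPM.

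Much of the spread went with 1 library. MS-275 replicate 3 was the lowest of the 3 in 88 of the 120 genes, against 21 for replicate 2 and 11 for replicate 1, and replicate 1 was the highest in 74. The median CPM of the genes was 3.60 in replicate 1, 3.53 in replicate 2 and 2.46 in replicate 3, and the gene's level in replicate 3 was a median of 61.2% of its mean in the other two. Replicate 3 was the lowest in 31 of the 32 genes with a spread over 40%. Without replicate 3 the median coefficient of variation was 18.5%, where counting error alone would give near 15.5% for these 2 libraries. In 48 genes it lay above the counting CV, or 40% of genes where counting error alone would give 31.7%, and 4 genes had a ratio over 2 between the libraries. Replicates 1 and 2 still differed, with 82 of the 120 genes higher in replicate 1 and a median level of 115% of that in replicate 2.

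**Figure D5:**
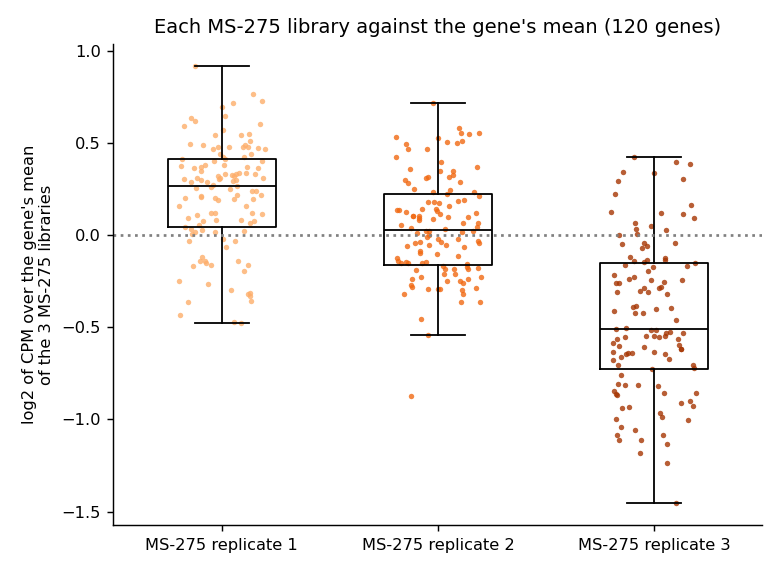
Level of each of the 120 genes in each MS-275 library over its mean in the 3 libraries, on the log2 scale. Boxes span the quartiles with a line at the median and whiskers to the farthest point within 1.5 times the box, and the medians are 0.27, 0.03 and -0.51 for replicates 1, 2 and 3.

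The order of the libraries was also read with limits that allow for their depth. The limit of 10 counts is 1.12 CPM in replicate 3, 1.85 in replicate 1 and 1.96 in replicate 2, so the rule admits a lower level in replicate 3 than in the others. With the limits set per total counts of the library, without TMM, at most 0.456 in every control and at least 1.52 CPM in every MS-275 library, 95 genes passed, 87 of them among the 120, and replicate 3 was the lowest in 63.2% of the 95. With counts thinned to equal depth it was the lowest in 61.4% of the 114 genes, of which 79 are among the 120, against 73.3% of the 120. These sets hold partly other genes, and whether depth has a part in the order was not tested. Replicate 3 was also low on other genes that were higher with MS-275. In 1023 other genes that were called higher (as set out below) and lay in the same range of MS-275 levels, replicate 3 was the lowest in 50.8%, at a median of 89.4% of the mean of the other two. In 374 genes of that range that were called lower it was the lowest in 15.5%, at a median of 113%, and in 3575 genes that were not called in 29.6%, at 102%. Whether the 120 genes differ in this from the other genes called higher was not tested.

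The spread was also set beside that of other genes in bins of like level. The other genes all passed edgeR's filter on low counts, which 26 of the 120 genes did not. Of these, 24 lay between 1.5 and 3 CPM and 2 between 3 and 6. All 26 were lowest in MS-275 replicate 3, as the filter and the rule's limits bring about. Between 3 and 6 CPM the median coefficient of variation was 33.6% in 49 of the 120 genes and 20.7% in 927 other genes, with median counting CVs of 20% and 19.4%. Between 1.5 and 3 CPM the medians were nearer, 29.8% in 55 genes and 26.2% in 449 others. Between 6 and 26 CPM they were 24.4% in 16 genes and 13.2% in 3596 others, most of which lie higher in that range, as their lower median counting CV of 10.8% against 14.2% shows. Neither the difference in spread nor the part of the filter or of replicate 3 in it was tested.

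Since the rule used all 6 libraries, each library was also left out of the choice in turn, and the genes chosen by the other 5 were then read in it. This step was added after the values had been seen. Without MS-275 replicate 3, 133 genes were chosen. In replicate 3 these had between 1 and 198 counts, with a median of 21.0. They were above 3 counts there in 130 genes. The 120 genes at 10 or more there are the listed genes themselves, as the rule brings about. Every one of the 133 had a higher CPM in replicate 3 than in any control, as did 42.5% of the 12596 tested genes. For replicates 1 and 2 that share of the tested genes was 42.8% and 42.6%. The choice held the controls of the 133 genes at 3 counts or fewer, while the tested genes had a median control level of 34.3 CPM. These shares are therefore not on like terms. Without MS-275 replicate 1, 132 genes were chosen, and in replicate 1 all 132 were above 3 counts, with a lowest count of 7. Without MS-275 replicate 2, 148 genes were chosen, of which 146 were above 3 counts in replicate 2. No share of other genes above 3 counts is given beside these numbers, so they are a description only. Since no limit was set in the library left out, while the other two had to reach 10 counts, the choice favours genes that are lower in it. It lay at a median of 128% of the other two for replicate 1, 95.9% for replicate 2 and 59.0% for replicate 3.

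The controls differed when read in the same way. Without control replicate 1, 177 genes were chosen, and 57 of them had more than 3 counts in it, with a median of 2 counts and a highest count of 15. Without control replicate 2, 19 of 139 genes had more than 3 counts in it, and without control replicate 3, 11 of 131 did, with a median of 1 count and a highest count of 11 in either. Each of these genes was lower in the control left out than its mean in the MS-275 libraries. The choice favours this, since it set a least count in every MS-275 library and kept the other controls near silent. No like share of the tested genes is given beside it. Control replicate 1 was thus the library that kept more genes off the list than any other did. Of the 120 genes, 31 were at 0 in control replicate 1, 57 in replicate 2 and 53 in replicate 3.

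The limits of the rule cut through a continuous range of counts. On the inside, 31 genes had a highest control count of 3, with a median MS-275 level of 3.07 CPM and a median control level of 0.280 CPM. Just outside, 39 genes had a highest control count of 4 and met the limit for MS-275, with medians of 4.13 and 0.324 CPM. The highest of these 39 had 4, 2 and 1 counts in the controls and 66, 55 and 75 with MS-275, which would place it among the upper genes of the list. At the other limit, 15 genes had a lowest MS-275 count of 10, with MS-275 levels between 1.78 and 2.41 CPM. Just outside, 11 genes had a lowest count of 9, between 1.71 and 2.32 CPM. The highest of these had 3, 1 and 1 counts in the controls and 9, 15 and 21 with MS-275.

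The genes were also placed in a test across the whole table, as a description only. Of the 120 genes, 94 passed edgeR's filter on low counts, and 26 did not. All 26 were lowest in MS-275 replicate 3, with 10 to 13 counts and 1.12 to 1.45 CPM there. The filter and the rule bring this about, since the rule's 10 counts are already 1.85 and 1.96 CPM in replicates 1 and 2. Genes were called higher at a Benjamini-Hochberg adjusted p-value under 0.05 in edgeR's quasi-likelihood test and a log2 fold change of at least 1, and 13.9% of the 12596 genes tested were called so. All 94 of the genes that passed the filter were among these, as their choice on the same counts brings about, and the count says nothing further on them. DESeq2 called 13.3% of 15241 genes higher, and its calls include all 120.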

How the data were processed

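RNA of 3 control and 3 MS-275-treated samples was sequenced. The authors filtered out contaminants (bowtie2), mapped reads with STAR to the rat build Rnor_6.0 and deposited the raw count of reads on each gene. Trimmomatic 0.36v is named in the submitters' processing notes. FeatureCounts is the counter in the methods, but each table closes with 5 lines in the form htseq-count writes. Those lines were excluded, since they are not genes, and held between 68.6% and 70.8% of the alignments. Most of this was alignments assigned to no gene, 60.2% to 61.9% of the alignments of a library. Strandedness was not given in the sources used here. The authors' deposited comparison (group means, fold changes and p-values) was not used.

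The members, gene lists and tests were chosen with earlier results of these data known. Genes were filtered with filterByExpr, scaled with TMM and fitted with edgeR 4.0.16 in R 4.3.3, with no block. DESeq2 1.42.0 was an alternative. The fits and intervals were tested on simulated data. Intervals were computed with scipy 1.17.1. The libraries were amplified by PCR and reads were not collapsed by molecular identifiers, so floors and intervals cover counting error only.

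Genes were named by rank of their mean MS-275 level, the spread between MS-275 libraries, the lower bound and the limits of the rule, with identifiers for the first 2 by level. The planned parts on gene lists, gene families, promoters, gene types and position need gene names and were not run. No sequence is shown for the same reason. Alternatives were other limits, thinned counts (1 draw with a fixed seed), limits in CPM, other scalings and filters, a replicate block and leaving out each library.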

Additional observations from a re-analysis of the deposited data

How the results depend on the processing

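The number of genes followed the limits of the rule. It was 16, 49 and 198 with at most 0, 1 and 5 counts in every control, and 254 and 38 with at least 5 and 20 counts in every MS-275 library, in place of 120. These differences follow from the limits themselves. With each library left out in turn it was between 131 and 177, and the number under the reversed rule was between 0 and 3. Depth limits the choice and the bounds, since 3 counts are between 0.335 and 0.589 CPM.

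With each MS-275 library left out, the median coefficient of variation between the others was between 18.5% (without replicate 3) and 34.8% (without replicate 2), against 30% with all 3. Of 52 alternatives, 41 left the value within 1 SD between libraries, or a count within 1.5 times. The 41 include every alternative for the number of listed genes called higher. The choice of the genes on the same counts brings those calls about. That part of the 41 therefore says nothing on how stable the results are. The median level was between 2.92 and 3.62 CPM with a library left out, and the median lower bound between 7.42-fold and 10.1-fold.

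Libraries that share a replicate number were not treated as pairs, since their deviations from the group mean correlated at 0.16, -0.02 and 0.13 for numbers 1, 2 and 3. With a replicate block 1763 of the 12596 tested genes were called higher, against 1754 without it. The 94 of the 120 genes that passed the filter were called either way. Their choice brings this about, so it says nothing on the block.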
